A study of Mus musculus with 6 samples.

Results

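The genes described here code for the proteins of the mitochondrial ribosome, named Mrpl for the large subunit and Mrps for the small subunit. They were compared in cells labelled as collecting duct cells of newborn mice. KO cells came from mice with a conditional deletion of the bradykinin B2 receptor gene Bdkrb2, and WT cells from mice with an intact Bdkrb2. Members were taken by symbol, as every gene named Mrpl or Mrps plus a number, with Cy5 signal flagged as well above background on 3 or more of the 6 arrays. A RefSeq table held 84 such symbols, of which 6 were pseudogenes without a probe. All 78 remaining genes had a probe on the array, and 77 of them were tested (48 Mrpl and 29 Mrps) among 14755 genes in all. The one member left out was Mrpl21, whose single probe was well above background on 0 arrays and gave 0.964 to 1.07 times the local background, whereas all 77 others were well above background on all 6 arrays.

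The KO pups carried Hoxb7cre, floxed Bdkrb2 on both alleles and the R26RtdTomato reporter. The WT pups carried the same Cre and reporter with Bdkrb2+/+, and all were C57BL/6. Cells positive for both GFP and dsRED were sorted from kidneys on postnatal day 1. All animals were on food with 5% sodium, so the salt load was shared by both groups and no group without it was compared. Hoxb7-driven Cre acts in the ureteric bud lineage, which forms the collecting duct, so the deletion is meant for that lineage alone. Each group had 3 samples, called biological replicates by the submitters, and how many pups went into a sample was not stated. The p-values therefore measure the spread between these samples, and litter and genotype cannot be told apart. Every array held a sample in Cy5 and the RNA of WT replicate 1 (WT1) in Cy3, so a value on an array is a log2 ratio to WT1, and the WT1 array set that RNA against itself.

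Mitochondria keep a small genome that codes for core subunits of the respiratory chain and ATP synthase, and a dedicated ribosome translates its messages. The ribosomal RNAs of this ribosome come from the mitochondrial genome, whereas all its proteins are encoded in the nucleus, made in the cytosol and imported. Some of these proteins descend from bacterial ribosomal proteins and others were added in the mitochondrial lineage. Tubule cells of the kidney are rich in mitochondria because ion transport consumes ATP.

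The arrays had 62976 spots, no spot was saturated, and between 49.8% and 57.5% of spots per array were well above background in Cy5. The Bdkrb2 probe was well above background on 0 arrays (0.972 to 1.11 times the local background), so it could not check the genotype labels. Markers of collecting duct were well above background in every sample, and all 13 principal cell and all 13 intercalated cell markers were lower in KO, with median differences of -1.90 and -2.21 on the log2 scale. Markers of the loop and distal tubule (12 of 12 lower, median -2.10), endothelium (9 of 10 lower), erythroid cells (7 of 7 lower, -2.47) and proximal tubule (5 of 12 lower, -0.39) had medians below 0. Markers of nephron progenitors (9 of 10 higher, 2.28), stroma (9 of 11 higher, 1.69), immune cells (5 of 7 higher, 1 lower, 0.99) and podocytes (3 of 8 higher, 0.53) had medians above 0. On single arrays the principal cell median ran from -0.09 to 0.08 in WT and from -2.18 to -1.81 in KO, that of nephron progenitors from -0.07 to 0.13 and from 1.59 to 2.25, that of stroma from -0.80 to 0.12 and from 1.39 to 1.54, and that of erythroid cells from -1.30 to 0.24 and from -3.04 to -2.74. The groups overlapped in the proximal tubule median, which was 0.14, -0.93 and -0.13 in WT and -0.63, -0.71 and -0.92 in KO, with WT2 below every KO array. They overlapped in the podocyte median too, where WT1 was above every KO array and WT2 and WT3 were below. These shifts went along with every comparison of KO with WT below, and their part in the results was not tested. In such bulk samples, fewer cells of a type and less RNA per cell cannot be told apart.

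How many transcripts of the mitochondrial ribosome were lower in KO cells depended on how the arrays were scaled, from 32 of 77 with loess to 1 of 77 with median centring. With loess, 32 of the 77 genes passed the limma test as lower (41.6%) and 0 as higher, against 20.0% lower and 15.4% higher among all genes tested. The large subunit had 19 of 48 genes lower (39.6%) and a median difference of -0.25. The small subunit had 13 of 29 lower (44.8%) and a median of -0.33, and the median over all genes tested was -0.02. Most decreases with loess were small. Only 8 of the 32 reached 1.5-fold, and 1, Mrps6, reached 2-fold. A gene was called where its adjusted p from limma, corrected over all 14755 genes by Benjamini-Hochberg, was under 0.05, and all differences are KO minus WT with the moderated standard error (SE) and n = 3 per group.

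The zero point of each array set the direction of these differences, so both scalings are given. Loess bends each array's ratios to 0 at every signal level, whereas median centring subtracts 1 number per array, the median of all probes. Centred in that way, the median of the genes tested was 0.24 higher in KO, the Mrpl median was 0.10 and the Mrps median was 0.00. Set against the median of all genes tested, the Mrpl genes lay at -0.23 with loess and -0.15 with median centring, and the Mrps genes at -0.31 and -0.24. The families thus lay below the typical gene under both scalings, while their differences from 0 had no common sign. After median centring, 0 Mrpl genes and 1 Mrps gene, Mrps6, were lower, and 0 were higher, against 7.03% lower and 20.4% higher among all genes.

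That scaling also spread the WT arrays. The median of the genes tested was 0.79, 0.37 and 0.23 on WT1, WT2 and WT3 after median centring, and 0.66, 0.64 and 0.69 on the KO arrays. WT1, the array with the same RNA in both dyes, was therefore the farthest from 0. With loess the same medians were all between -0.02 and 0.03. Over the 77 members the SD of the WT array medians was 0.33 after median centring and 0.06 with loess.

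**Figure D1:**
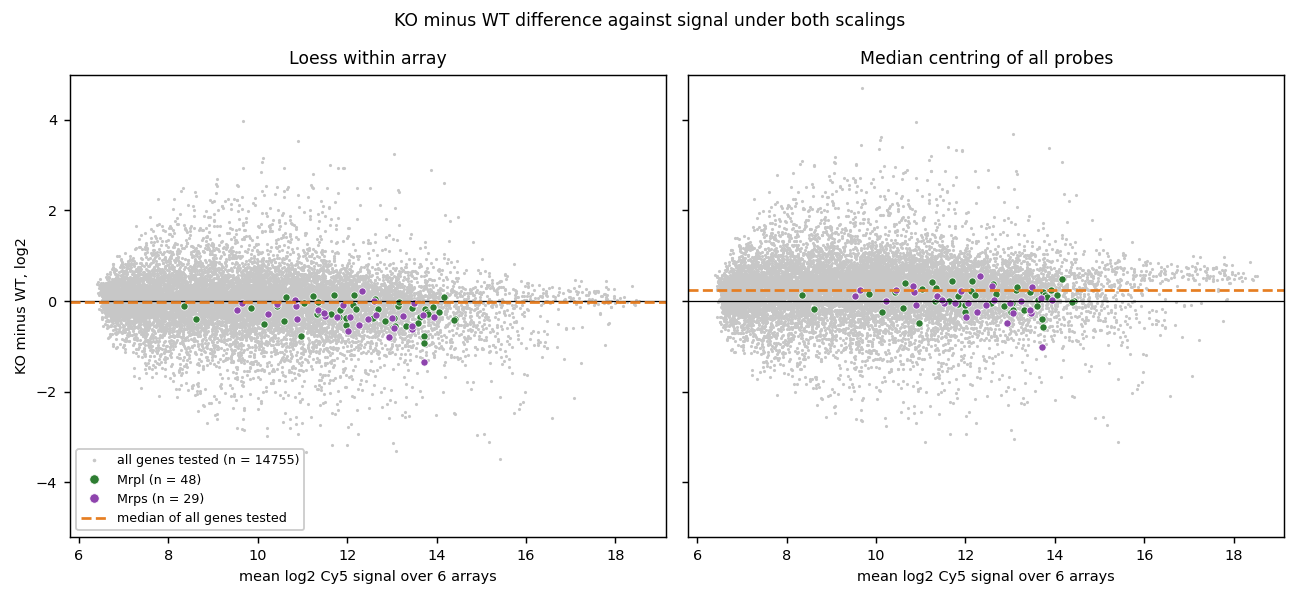
The KO minus WT difference on the log2 scale is plotted against the mean log2 Cy5 signal for 14755 genes (grey), 48 Mrpl genes (green) and 29 Mrps genes (purple), with loess at left and median centring at right. The dashed line is the median of all genes tested, -0.02 at left and 0.24 at right, and most members lie below it in both panels, although with median centring they scatter on both sides of 0.

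Other ways to set the zero gave values in between. The ratios made by Agilent's own program put the Mrpl median at -0.19 with 16 genes lower and the Mrps median at -0.27 with 8 lower, against 18.0% lower and 15.9% higher among all genes. The Cy5 channel used alone gave -0.21 with 17 lower and -0.28 with 8 lower, against 18.3% lower and 15.9% higher among all genes. With the median of the tested genes put at 0 on each array, an alternative added after the data were seen, 11 Mrpl and 7 Mrps genes were lower (medians -0.11 and -0.20), against 15.5% lower and 18.6% higher among all genes. Under all 5 scalings 0 members were higher. Differences below are with loess. After median centring 31 of the 32 called genes stayed below 0 and 1, Mrps18b, did not, and 41 of all 77 kept their sign. Of the uncalled genes named below, Mrpl4, Mrpl27, Mrpl38, Mrpl39, Mrpl44, Mrpl58, Mrps2, Mrps11, Mrps12, Mrps22, Mrps23, Mrps26 and Mrps30 were below 0 with loess and above 0 after median centring.

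Separation between the groups depended on the scaling as well. With loess, in 51 of the 77 genes all 3 KO values lay below all 3 WT values, 29 of them Mrpl (60.4%) and 22 Mrps (75.9%), against 28.2% of all genes. After median centring 7 of the 77 separated in that way (9.09%, against 11.0% of all genes), and 33 of 77 did with the median of the tested genes at 0 (42.9%, against 22.4%). With loess, in 1 gene, Mrps17, all KO values lay above, against 24.0% of all genes. All 32 genes called lower were among the 51. Of the 45 genes not called, 37 had a difference below 0 and 8 above. The lowest 95% bound among these 45 was -0.68, for Mrpl58, so a halving lay outside every one of their intervals, and the SE was at most 0.15 in 74 of the 77 genes.

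**Figure D2:**
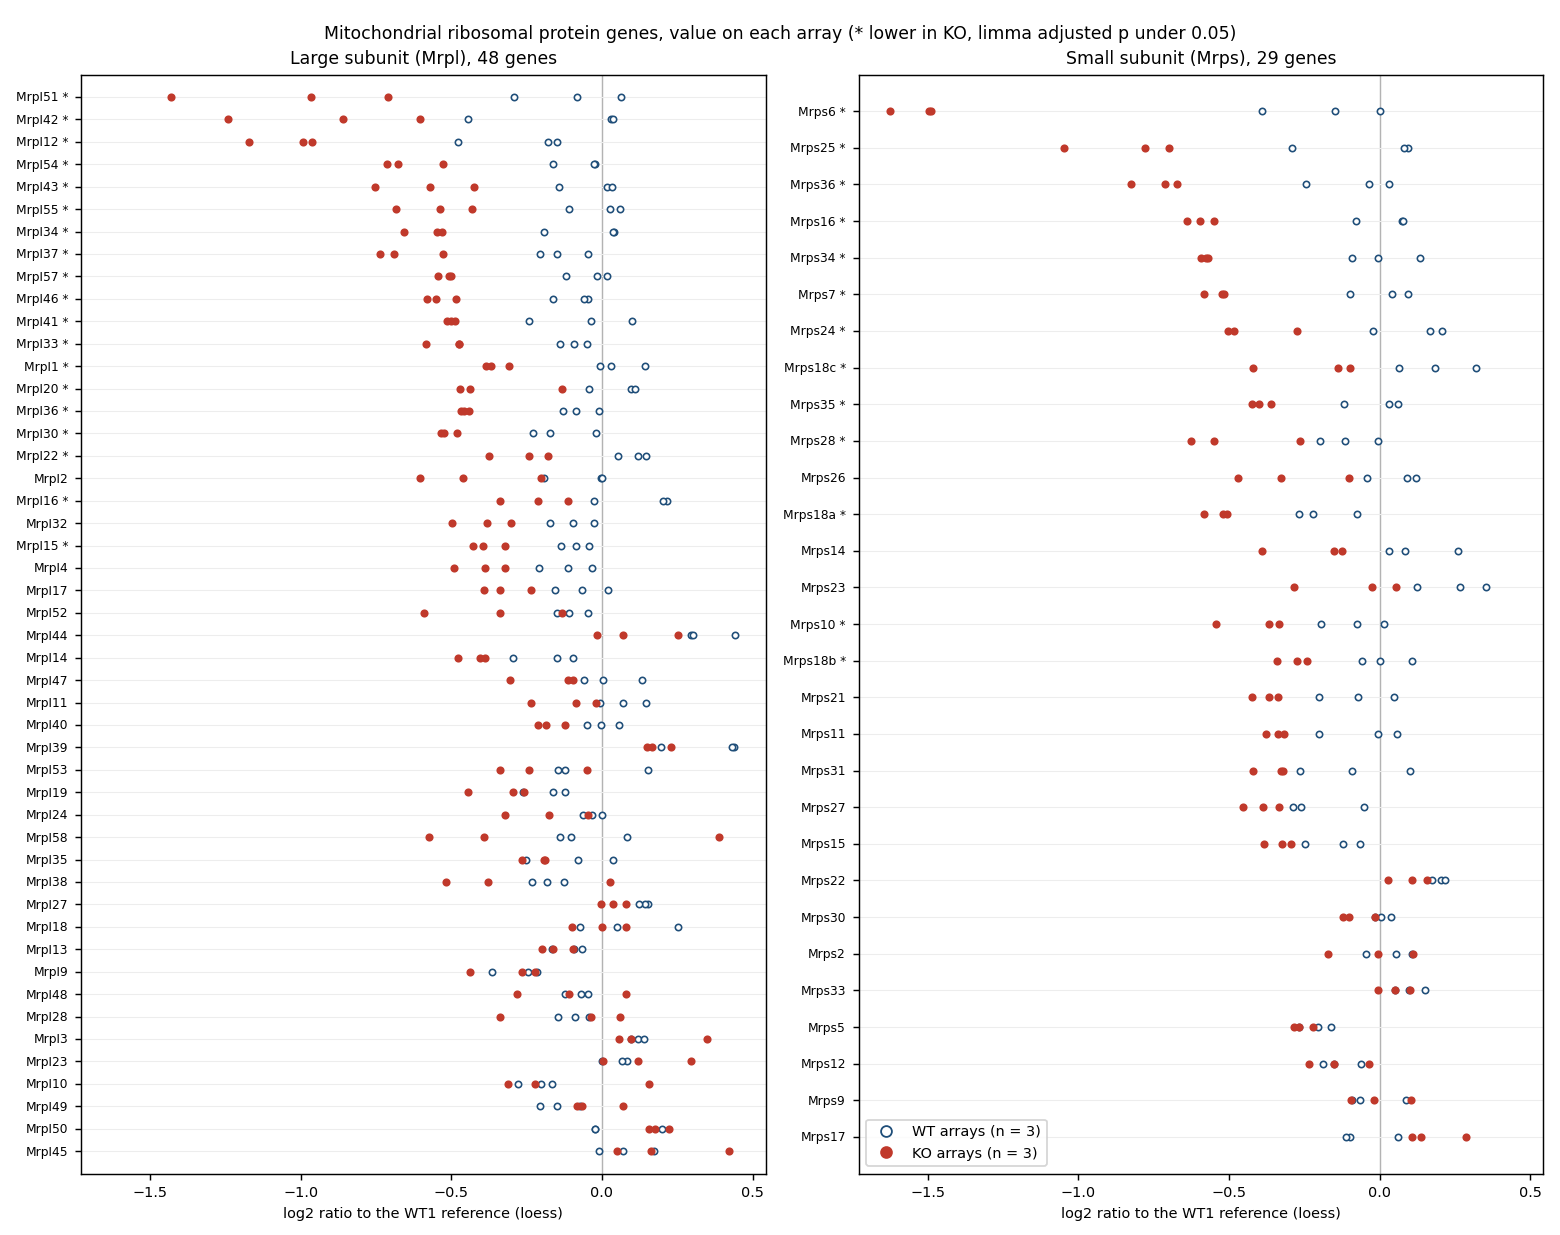
The log2 ratio to the WT1 reference after loess is shown for each of the 77 genes on each array, with WT as open and KO as filled circles, the large subunit at left and the small at right, ordered by the difference. Genes marked with an asterisk passed the test, and their KO circles lie wholly to the left of the WT circles. The widest gap is that of Mrps6, at the top of the right panel.

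In the small subunit, the gap between groups was widest for Mrps6, the counterpart of a bacterial protein of the subunit's platform. Its log2 ratios were -0.15, -0.39 and -0.00 on the WT arrays and -1.63, -1.49 and -1.49 on the KO arrays. The groups lay more than 1 log2 unit apart, with KO values close together. The difference was -1.36 ± 0.12 (SE, n = 3 per group), a level 2.56-fold lower (adjusted p = 0.000261), and it was -1.02 after median centring.

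Mrps25, a protein of the small subunit's body that bacteria lack, followed. It gave 0.09, -0.29 and 0.08 in WT and -0.78, -1.05 and -0.70 in KO, a difference of -0.80 ± 0.15 (adjusted p = 0.00422). A second, dimmer Mrps25 probe gave -0.33, with -1.09 on KO1 against 0.31 and 0.25 on KO2 and KO3, so the probes of this gene disagreed on KO2 and KO3. Mrps36, named as a ribosomal protein and now known as a component of the 2-oxoglutarate dehydrogenase complex, gave -0.04, -0.24 and 0.03 in WT and -0.67, -0.71 and -0.82 in KO (-0.65 ± 0.11, adjusted p = 0.00306).

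Mrps16, the first gene of this family linked to a human respiratory chain disease, had WT values of 0.08, -0.08 and 0.08 and KO values of -0.60, -0.64 and -0.55. The difference was -0.62 ± 0.10 (adjusted p = 0.00219). Mrps34, which is needed for a stable small subunit, had WT values of -0.00, -0.09 and 0.14 and KO values of -0.57, -0.58 and -0.59, a difference of -0.59 ± 0.10 (adjusted p = 0.00302). The KO values of both genes were tightly grouped and lay below every WT value, and both differences were -0.27 after median centring.

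Mrps7, a protein that binds the small subunit's RNA early in assembly, gave 0.04, -0.10 and 0.09 in WT and -0.52, -0.52 and -0.58 in KO (-0.55 ± 0.10, adjusted p = 0.00378). Its second probe, also well above background on all arrays, gave 0.00, -0.11 and 0.06 in WT and 0.38, 0.24 and 0.27 in KO, a difference of 0.31. The 2 probes thus separated the groups in opposite directions, and the direction for Mrps7 transcripts as a whole is not settled by these arrays.

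The other called genes of the small subunit were Mrps24 (-0.54), Mrps18c (-0.41), Mrps35 (-0.39), Mrps28 (-0.37), Mrps18a (-0.35), Mrps10 (-0.33) and Mrps18b (-0.30). Mrps28 was only just called, with WT values of -0.20, -0.11 and -0.00 and KO values of -0.27, -0.55 and -0.62. With 1 array left out, the call was lost in all 6 fits for Mrps18b and in 5 for Mrps10, Mrps18c and Mrps28. It was lost in 4 fits for Mrps18a and 2 for Mrps35, and Mrps24 kept it throughout. Mrps18b turned to 0.02 after median centring (adjusted p = 0.950).

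Several small subunit genes with well-known roles were not called. Mrps12, whose protein sits at the decoding centre, had WT values of -0.15, -0.19 and -0.06 and KO values of -0.15, -0.04 and -0.24, which overlapped throughout (-0.01 ± 0.10, 95% interval -0.24 to 0.23). Mrps22 (-0.10), Mrps2 (-0.06) and Mrps23 (-0.33), each linked to inherited mitochondrial disease in humans, had adjusted p-values of 0.432, 0.700 and 0.0689. A second, dimmer Mrps23 probe gave -0.58, with KO values (-0.88, -0.89 and -0.85) below WT values (-0.12, -0.49 and -0.25). Mrps22 had WT values of 0.20, 0.18 and 0.22 and KO values of 0.03, 0.16 and 0.11, a narrow gap with no overlap.

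Mrps17, another protein of bacterial descent, stood at the upper end of the family. WT arrays gave 0.06, -0.10 and -0.11, and KO arrays 0.29, 0.11 and 0.14. Every KO value lay above every WT value, but the difference of 0.23 ± 0.10 did not pass the test (adjusted p = 0.130). A second probe gave 0.21, with the same order of groups. Mrps17 was looked at because of this order, after its values had been seen.

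In the large subunit the lowest difference was that of Mrpl51, a protein added in the mitochondrial lineage. It had WT values of -0.08, -0.29 and 0.06 and KO values of -1.43, -0.71 and -0.97. The KO arrays were well apart from each other, with KO1 lowest, and all lay below WT. The difference was -0.93 ± 0.19, a level 1.91-fold lower (adjusted p = 0.00661), and -0.57 after median centring.

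Mrpl42, likewise without a bacterial counterpart, gave 0.03, -0.45 and 0.04 in WT and -1.24, -0.86 and -0.61 in KO (-0.78 ± 0.19, adjusted p = 0.0166). WT2 was low and came within 0.2 log2 units of KO3. The call was lost without WT1 or without WT3.

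Mrpl12, the counterpart of the bacterial stalk protein L7/L12 that recruits translation factors, gave -0.18, -0.48 and -0.15 in WT and -0.99, -0.96 and -1.17 in KO. The groups did not overlap, although WT2 was again the lowest of the WT arrays. The difference was -0.77 ± 0.12, a level 1.71-fold lower (adjusted p = 0.00246), and -0.41 after median centring. Mrpl12 has also been described as a binding partner of the mitochondrial RNA polymerase, whose gene Polrmt was lower too with loess (-0.40 ± 0.10, adjusted p = 0.0185). Polrmt was not called under the other scalings.

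Mrpl54, Mrpl43 and Mrpl55 came next, with differences of -0.57, -0.55 and -0.54. Mrpl54 gave -0.02, -0.16 and -0.03 in WT and -0.71, -0.68 and -0.53 in KO. Mrpl43 gave 0.02, -0.14 and 0.03 in WT and -0.75, -0.42 and -0.57 in KO. In all 3 genes the highest KO value lay below the lowest WT value.

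Mrpl41, a mitochondria-specific protein of the large subunit, was called at -0.44. Its WT values were 0.10, -0.24 and -0.04 and its KO values -0.50, -0.52 and -0.49. A second, dimmer Mrpl41 probe gave -0.02, with overlap between WT (0.07, 0.02 and 0.07) and KO (-0.11, 0.13 and 0.09). The Mrpl41 call was lost in 3 of the 6 fits that left out 1 array. The remaining called genes of the large subunit ran from -0.54 (Mrpl34) to -0.29 (Mrpl15). The brightest probes of the subunit were those of Mrpl33 (-0.42) and Mrpl20 (-0.40), and both were called. With 1 array left out, the call was lost in 1 of the 6 fits for Mrpl33 and in 5 for Mrpl20. In the small subunit they were those of Mrps26 (-0.36, adjusted p = 0.0534), which was not called, and Mrps6.

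Among genes picked for known roles at the catalytic centre and the exit tunnel, 4 were not called. Mrpl3 gave 0.12, 0.10 and 0.14 in WT and 0.35, 0.09 and 0.06 in KO (0.05 ± 0.11), with overlap. Mrpl23, at the tunnel exit, gave 0.09 ± 0.11, and Mrpl27, which reaches toward the catalytic centre, -0.10 ± 0.09. Mrpl4, of the tunnel wall, had all KO values below WT at -0.28 ± 0.10 but missed the threshold (adjusted p = 0.0637). Counterparts of other proteins of these regions were called, namely Mrpl16 (-0.35) and Mrpl22 (-0.37), which were picked after their values had been seen. With 1 array left out, the call was lost in 5 of the 6 fits for Mrpl16 and in 3 for Mrpl22.

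Mrpl58, a peptidyl-tRNA hydrolase built into the large subunit, showed the widest split among KO arrays. WT arrays gave -0.14, -0.10 and 0.08, and KO arrays 0.39, -0.57 and -0.39. KO1 lay above all WT values and the other two below them, so no common direction can be given (-0.14 ± 0.23, adjusted p = 0.666). Without KO1 the gene passed the test. Mrpl44, a ribonuclease III-like protein, had WT values of 0.29, 0.30 and 0.44 and KO values of -0.02, 0.07 and 0.25 (-0.24 ± 0.11, adjusted p = 0.123).

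Single arrays stood apart in a recurrent way. WT2 was the lowest WT array in 55 of the 77 genes. KO1 differed from the mean of KO2 and KO3 by more than 0.3 in 11 genes, in 7 of them upward, among them Mrpl38 (0.03 against -0.52 and -0.38) and Mrpl10 (0.16 against -0.31 and -0.22). The medians over the family nevertheless kept the groups apart with loess. For Mrpl the WT medians of -0.04, -0.12 and -0.01 lay above the KO medians of -0.29, -0.33 and -0.37. For Mrps the WT medians of 0.06, -0.10 and 0.03 lay above the KO medians of -0.34, -0.37 and -0.32.

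The number of calls depended on which arrays entered the fit. It was 16 without WT3, 19 without WT1 and 21 without KO2, and between 24 and 35 without WT2, KO3 or KO1. The share of all genes called lower moved too, from 13.4% without WT3 to 22.6% without KO1, against 20.0% with all arrays. The large subunit had 9 genes lower without WT3 and 12 without WT1, and the small subunit 7 without WT3, 7 without WT1 and 8 without KO2. In every such fit 16 of the 32 genes were called, among them Mrps6, Mrps25, Mrpl51 and Mrpl12. Slide position was unevenly placed, since WT1 and all KO arrays lay in row 1 of the slide and WT2 and WT3 in row 2. With the row as a block, KO was set against WT1 alone, so no weight is given to the calls of that fit. Its medians were -0.26 for Mrpl and -0.35 for Mrps.

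Genes with several probes gave a further check. Of the 22 members with 2 probes, 16 had both on the same side of 0 and 6 had them on opposite sides, namely Mrpl10, Mrpl39, Mrpl49, Mrpl50, Mrps14 and Mrps7. Mrpl49 gave 0.12 by its brighter probe, with overlapping groups, and -0.37 by the other, where KO (-0.58, -0.57 and -0.60) lay below WT (-0.03, -0.36 and -0.22). In Mrpl10, Mrpl50 and Mrps14 the dimmer probe differed from 0 by less than 0.1. Among the 16 it did so too in Mrpl15, Mrpl41, Mrps2 and Mrps33. The 6 pseudogenes in the RefSeq table belong to Mrpl23, Mrpl27, Mrpl48 and Mrps36, and cross-hybridisation of their transcripts to those probes was not tested.

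Proteins of bacterial descent were set beside proteins gained by mitochondria, and the difference between these classes was not tested. With loess, in the large subunit 11 of 29 genes of bacterial descent were lower (median -0.25) and 8 of 19 mitochondria-specific genes (median -0.24). In the small subunit the counts were 7 of 16 (-0.32) and 4 of 10 (-0.32). The large subunit counts were 8 of 29 and 8 of 19 with Agilent's ratios, 4 of 29 and 7 of 19 with the median of the tested genes at 0, and 0 in both classes after median centring. Mrps18a and Mrps30 are named for the small subunit but their proteins sit in the large one. They gave -0.35 (called) and -0.09 (not called). Of 5 mitochondrial ribosome proteins under other names, 1 was lower. It was Aurkaip1 (-0.53 ± 0.10, adjusted p = 0.00487), while Dap3, a GTP-binding protein of the small subunit, gave -0.28 (adjusted p = 0.0563), and 0.09 after median centring.

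The wider machinery of mitochondrial translation held about the share of lower genes found among all genes. Of 74 genes for translation factors, tRNA synthetases, assembly factors, ribosome proteins under other names and mitochondrial DNA expression, 15 were lower, or 20.3% against 20.0% of all genes (8 without WT1, 5 without WT3 and 8 without KO2). Among translation factors 5 of 15 were lower, with a median of -0.24. They were Gfm1 (-0.77), the elongation factor that moves the ribosome along the message, Gfm2 (-0.51), which helps to split it after termination, Tufm (-0.51), which delivers aminoacyl-tRNA, Mtif3 (-0.46), an initiation factor, and Oxa1l (-0.41), which inserts nascent chains into the inner membrane. Gfm1 gave 0.02, -0.18 and -0.02 in WT and -0.75, -0.85 and -0.87 in KO, well apart (SE 0.10, adjusted p = 0.00105).

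Mitochondrial tRNA synthetases and related enzymes had 4 of 19 lower (median -0.14), with Aars2 (-0.60), Fars2 (-0.54), Cars2 (-0.38) and Qrsl1 (-0.54), a subunit of the enzyme that makes glutaminyl-tRNA. Assembly factors had 4 of 25 lower (median -0.11), namely Mpv17l2 (-0.52) and the RNA-modifying enzymes Rpusd3 (-0.50), Mrm1 (-0.39) and Trmt2b (-0.38). Genes for copying and transcribing mitochondrial DNA went both ways with loess. Polrmt was lower and Twnk, the helicase of mitochondrial DNA replication, was higher, and the median of these 10 genes was 0.16. Under each of the other scalings 0 of the 10 were lower and 1 was higher. After median centring 0 of the 74 genes were lower, and the medians of translation factors, tRNA synthetases and assembly factors were 0.05, 0.16 and 0.17.

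Nuclear subunits of oxidative phosphorylation were lower by more than the ribosomal genes. Of 81 such genes 76 were lower and 1, Cox8b, was higher (0.30), with a median of -0.85. The medians were -0.81 for complex I (35 of 36 lower), -0.87 for complex II (4 of 4), -1.10 for complex III (9 of 9), -1.02 for complex IV (11 of 15) and -0.89 for complex V (17 of 17). Cox7a1, a cytochrome oxidase subunit, gave -0.10, -0.62 and 0.05 in WT and -1.61, -1.82 and -1.66 in KO (-1.47 ± 0.17). Median centring left 22 of the 81 lower, with a median of -0.48. The difference between this list and the ribosomal genes was not tested, and WT2 was the lowest WT array in the list's median too (-0.31, against 0.05 and 0.08).

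Cytosolic ribosomal proteins did not share the decrease. With loess 0 of 78 were lower and 1, Rps4x, was higher (0.44), with a median of 0.13. Median centring gave 45 of 78 higher and a median of 0.63, and the Cy5 channel alone a median of -0.09, so the sign for this family rests on the scaling. These are among the brightest probes, where the scalings differ most.

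**Figure D3:**
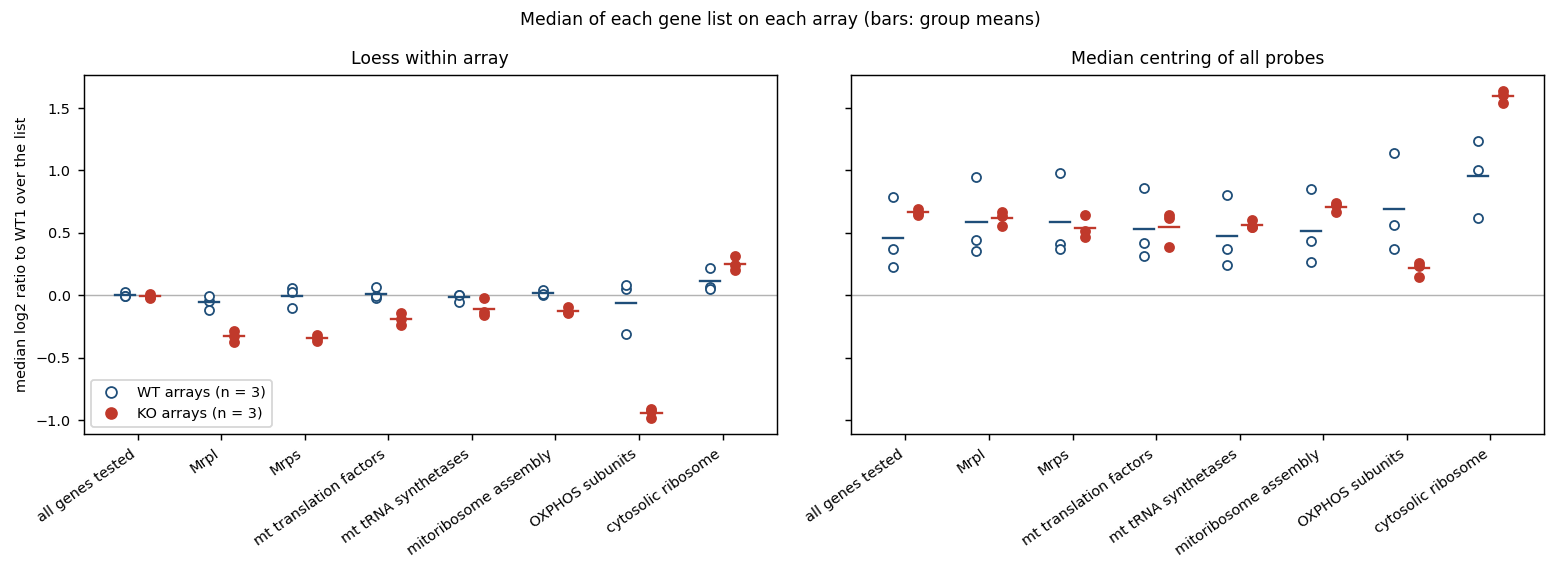
Each circle is the median log2 ratio to WT1 over 1 gene list on 1 array, WT open and KO filled, with short bars for the group means, for loess at left and median centring at right. With loess the KO medians of Mrpl, Mrps and the oxidative phosphorylation (OXPHOS) subunits lie below WT, the last by most. With median centring the WT circles spread over up to 0.8 log2 units, and the KO medians of Mrpl and Mrps lie among them.

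Regulators of mitochondrial gene expression were split. The nuclear receptors Esrra (-1.19 ± 0.12), Esrrb and Esrrg (-1.38 ± 0.15), which act on genes of oxidative metabolism, were lower, as was their coactivator Ppargc1a (-1.90 ± 0.33). Esrra gave -0.19, -0.50 and -0.17 in WT and -1.57, -1.39 and -1.47 in KO. Ppargc1a gave 0.17, -0.11 and 0.32 in WT and -2.63, -1.32 and -1.36 in KO, with KO1 apart from the other two. Gabpa, an ETS factor that binds many promoters of mitochondrial genes, was higher (0.41 ± 0.13, adjusted p = 0.0425), as was Myc (0.78 ± 0.15). Nrf1 gave 0.35 ± 0.16 and did not pass (adjusted p = 0.128). These 7 directions were the same after median centring.

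Because NRF1 and ETS factors are known to bind promoters of this family, their letters were counted in the 250 bases before each start site in RefSeq's GRCm38.p6 promoter table, which held 68 of the 77 genes. The NRF1 palindrome GCGCNNGCGC, searched on both strands, was present for 10 of the 68 (14.7%), against 5.64% of 27025 genes in the table. The ETS core CCGGAAG, on both strands, was present for 18 (26.5%), against 7.83%. The genes in the table were not matched to the members for content of G and C, whose part in these shares was not tested. Either motif was present for 27 of the 68 and both for 1. Among the 27 matched genes called lower, 3 had the NRF1 letters (11.1%) and 7 the ETS letters (25.9%). Among the 41 not called, the counts were 7 (17.1%) and 11 (26.8%). The called and uncalled members thus had these letters in similar shares, which describes the sequences and not binding.

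The stretch before Mrpl12 is shown as an example with the NRF1 palindrome in capitals, 5′ to 3′ on the gene's strand, at chr11:120484387-120484636 on the plus strand of GRCm38.p6.
Mrpl12: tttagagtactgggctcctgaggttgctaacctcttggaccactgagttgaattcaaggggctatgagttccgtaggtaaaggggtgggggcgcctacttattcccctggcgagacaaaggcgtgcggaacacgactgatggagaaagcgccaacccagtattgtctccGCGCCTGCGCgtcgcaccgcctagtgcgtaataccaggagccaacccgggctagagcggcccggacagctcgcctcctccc

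The gene with the lowest difference in the family, Mrps6, starts almost where another gene starts. Slc5a3, the sodium and myo-inositol cotransporter that takes up an osmolyte in the kidney, begins 14 bases before Mrps6 on the same strand, and no other matched member had a same-strand start within 1000 bases. Slc5a3 gave 0.03, 0.05 and 0.51 in WT and -2.85, -1.51 and -1.21 in KO, so that the groups were far apart and KO1 was lowest. Its difference was -2.05 ± 0.38 (adjusted p = 0.00470), and a second probe gave -1.46 with KO values of -1.68, -1.62 and -1.43. After median centring Mrps6 was at -1.02 and Slc5a3 at -1.84. Whether the Mrps6 probe also reads transcripts that start at the shared promoter and continue into Slc5a3 was not tested, and Slc5a3 was looked up after the Mrps6 value had been seen. The 250 bases before the first of both starts, chr16:92058072-92058321 on the plus strand of GRCm38.p6, are shown because this stretch lies before both genes, and it holds neither motif, so nothing is in capitals.
Slc5a3 and Mrps6: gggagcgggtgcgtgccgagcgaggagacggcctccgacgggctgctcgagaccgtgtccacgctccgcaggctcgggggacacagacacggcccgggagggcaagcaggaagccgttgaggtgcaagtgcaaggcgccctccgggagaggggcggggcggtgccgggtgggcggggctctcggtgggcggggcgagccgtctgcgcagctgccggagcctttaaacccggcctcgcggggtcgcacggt

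Many genes of this family stand head to head with a neighbour on the other strand. Start sites within 1000 bases and pointing apart were found for 25 members, and 23 distinct pairs had both genes tested. Outside the family there were 22 tested neighbours, of which 2 were lower (9.09%) and 5 higher (22.7%), against the 20.0% and 15.4% of all genes. Of the 10 called members with such a neighbour, 1 had a neighbour that was also lower, 3 had a neighbour that was higher and 6 had one that was not called. The genes named below were chosen after their values had been seen.

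In 3 pairs the genes on either side of the same stretch moved apart. Mrpl57 gave 0.02, -0.12 and -0.02 in WT and -0.50, -0.51 and -0.55 in KO (-0.48 ± 0.09). Ska3, a kinetochore gene whose start lies 76 bases away, gave -0.10, -0.08 and -0.24 in WT and 0.61, 0.49 and 0.48 in KO (0.67 ± 0.10, adjusted p = 0.00177). The groups did not overlap for either gene, with KO below WT for Mrpl57 and above for Ska3.

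Mrpl43, with the values given above (-0.55 ± 0.12), starts 116 bases from Twnk, which gave 0.01, -0.32 and -0.12 in WT and 0.63, 0.25 and 0.23 in KO (0.51 ± 0.14, adjusted p = 0.0255). Mrpl51 starts 614 bases from Ncapd2, a condensin subunit of mitotic chromosomes, which gave -0.05, 0.22 and -0.04 in WT and 1.02, 0.74 and 0.89 in KO (0.84 ± 0.12, adjusted p = 0.00154). The opposite signs held after median centring, at -0.12 and 0.98 for Mrpl57 and Ska3, -0.20 and 0.84 for Mrpl43 and Twnk, and -0.57 and 1.20 for Mrpl51 and Ncapd2.

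In 12 of the 23 pairs both genes had differences below 0, with both called in 1 pair, 1 gene called in 4 and neither in 7. With loess, differences below 0 were found for 69 of the 77 members and for 7637 of all 14755 genes tested. Whether the 12 pairs differ from what these shares give for unrelated neighbours was not tested. Mrpl46 and Mrps11, the pair made of 2 members, start 42 bases apart. Mrpl46 gave -0.05, -0.16 and -0.06 in WT and -0.55, -0.58 and -0.49 in KO (-0.45 ± 0.09, adjusted p = 0.00782), and Mrps11 had all KO values below WT at -0.29 ± 0.11 without passing the test (adjusted p = 0.0615). After median centring they were at -0.16 and 0.00. In the pair with both genes called, Mrpl37 (-0.52 ± 0.10) starts 128 bases from Cyb5rl, a gene for a cytochrome b5 reductase-like protein, which gave -0.02, -0.31 and 0.17 in WT and -1.04, -1.36 and -1.02 in KO (-1.08 ± 0.15, adjusted p = 0.00137).

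The bases between the start sites of 4 of these pairs are shown because each stretch lies before both genes of its pair, and Mrpl51 is left out for the length of its gap. Each is read 5′ to 3′ toward the Mrpl gene, from RefSeq's GRCm38.p6 table, with NRF1 and ETS letters in capitals. The positions are chr14:57826164-57826238 on the plus strand for Mrpl57, and on the minus strand chr19:45006443-45006557 for Mrpl43, chr7:78783090-78783130 for Mrpl46 and chr4:107066867-107066993 for Mrpl37.
Mrpl57 and Ska3: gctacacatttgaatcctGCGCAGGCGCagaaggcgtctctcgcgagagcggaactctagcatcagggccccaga
Mrpl43 and Twnk: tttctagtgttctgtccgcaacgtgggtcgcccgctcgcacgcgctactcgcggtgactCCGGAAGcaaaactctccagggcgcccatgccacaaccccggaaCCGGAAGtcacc
Mrpl46 and Mrps11: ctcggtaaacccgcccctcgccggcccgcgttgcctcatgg
Mrpl37 and Cyb5rl: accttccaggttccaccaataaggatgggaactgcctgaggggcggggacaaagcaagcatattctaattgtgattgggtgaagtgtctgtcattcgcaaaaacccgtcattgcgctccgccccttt
The Mrpl57 stretch holds 1 NRF1 palindrome and the Mrpl43 stretch 2 ETS cores, and the Mrpl46 and Mrpl37 stretches hold neither. The pairs were chosen after their values had been seen, so the letters are a description of these 4 stretches and not a contrast between kinds of pair.

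**Figure D4:**
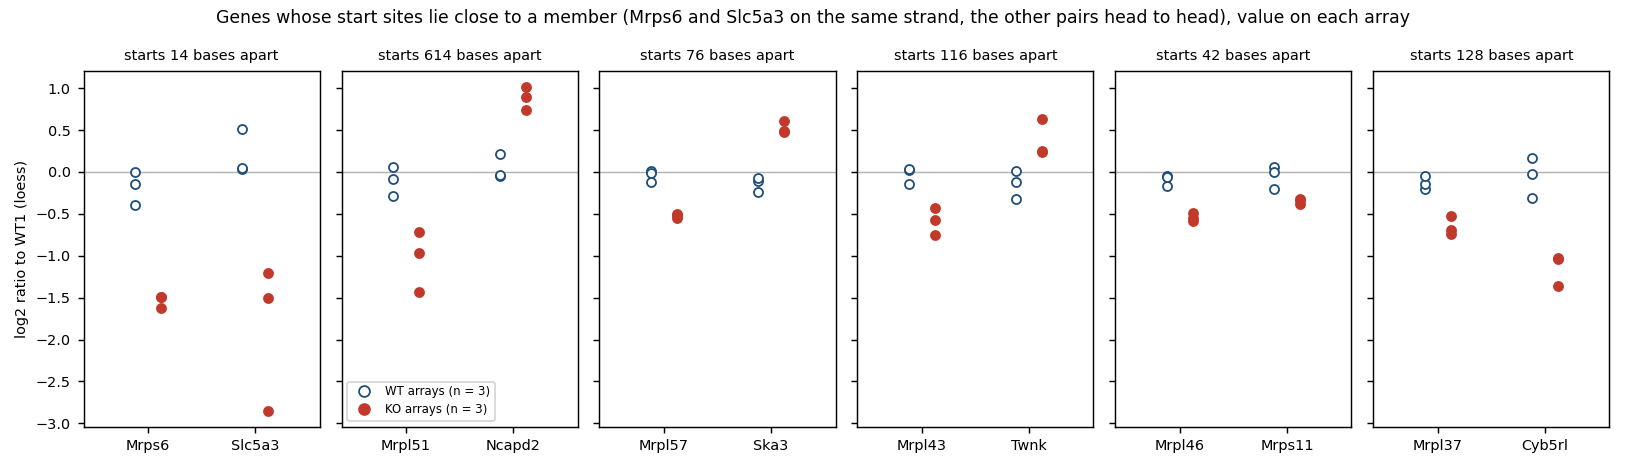
The log2 ratio to WT1 after loess is plotted on each array for Mrps6 and Slc5a3, whose starts lie 14 bases apart on the same strand, and for 5 head-to-head pairs, with WT open and KO filled. KO lies below WT for both genes in the first and the last 2 panels, and in the 3 panels between them KO lies below WT for the Mrpl gene and above it for the neighbour.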

How the data were processed

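The deposited scanner files held median spot and background intensities of both dyes. The file headers name Agilent Feature Extraction 10.7.3.1, and version 6.1 appears in the submitters' processing notes. Its log10 ratios of background-subtracted, dye-normalised Cy5 over Cy3 stand in the same files, per the file headers, and in the deposited matrix. Here, median intensities were corrected by normexp (offset 50), turned to log2 ratios and scaled by loess within each array, with controls at weight 0 and outlier spots dropped. Probe accessions were matched to RefSeq symbols, and the brightest probe that passed the background filter stood for a gene. KO minus WT was tested by limma 3.58.1 (R 4.3.3) over 6 arrays, 2-sided, with Benjamini-Hochberg adjustment. The fit was tested on simulated data. Members and lists were chosen with earlier results of these data known. Genes named were the 6 lowest called and 2 brightest per subunit, members with probes of opposite sign, the untested member, 16 genes picked for known roles, and up to 4 per other list by smallest p. Others were chosen after their values were seen. The number of arrays limits the precision.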

Additional observations from a re-analysis of the deposited data

How the results depend on the processing

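Results were recomputed under other scalings, background and probe choices, filters, array weights, blocks and with each array left out. The medians were -0.25 (Mrpl) and -0.33 (Mrps) and the counts lower 19 and 13, with 15 other genes of mitochondrial translation and 76 oxidative phosphorylation subunits. Median centring gave medians of 0.10 and 0.0032, counts of 0, 1, 0 and 22, and turned Mrps18b to 0.025. Agilent's ratios and the deposited matrix both gave an Mrpl median of -0.19 and 8 Mrps genes lower, as did Cy5 alone for that count. Centring on the tested genes, added after seeing the data, gave medians of -0.11 and -0.20 and counts of 11, 7 and 8 (Mrpl, Mrps, translation). The slide row as a block gave 4, 5 and 2. That fit set KO against WT1 alone, so its counts say nothing about these genes and are not compared with the others. Array weights gave 43 members and 24 translation genes lower, against 25.6% of all genes. With each gene's probes averaged, 27 of the 32 members called lower kept the call and 5 lost it. In all, 32 members were then lower, against 20.2% of all genes. Leaving out 1 array gave 9 to 22 Mrpl, 7 to 13 Mrps and 5 to 19 translation genes, with 13.4% to 22.6% of all genes lower. The replicate block gave 17 Mrpl and 12 Mrps genes, against 19.6% of all genes lower. The deviations of same-numbered arrays correlated by 0.135, 0.0835 and 0.200, so the numbers were not taken as pairs. The causes were not tested. Signal was not the limit for 77 genes and was for Mrpl21.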
